A study of Drosophila melanogaster with 9 samples.

Results

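Wing imaginal discs depleted of Psi were compared with control wing discs across all genes that carried enough reads to test. The wing imaginal disc is the larval epithelial sac that forms the adult wing and part of the body wall. The comparison took the 3 libraries labelled Psi RNAi and the 3 labelled control, 6 of the 9 libraries in the series, and the 3 Myc RNAi libraries serve as a further group where stated. Of 17471 genes in the count files, 9235 passed the count filter and were tested.

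Psi RNAi discs had the genotype tsGAL80;tubG4/Psi RNAi, Myc RNAi discs tsGAL80;tubG4/Myc RNAi and control discs tsGAL80;tubG4/+. All 3 groups therefore carried the ubiquitous tubulin-GAL4 driver together with a temperature-sensitive GAL80, which holds GAL4 silent until the temperature is raised, so the knockdown was expected in every cell type of the disc. The hairpin stocks were V105135 for Psi and V2947 for Myc, and the control line came from BL39831. Each line is 1 hairpin stock, so differences of genetic background or of insertion site between the stocks cannot be told apart from the knockdown. The count files of the controls are named for a white-eyed laboratory strain, which leaves their genotype uncertain, and groups here follow the labels. Knockdown lasted for the last 3 days before collection, after 4 days at 18 °C, and the sources disagree on the second temperature and on whether larvae were in the third instar at its mid or its wandering phase. Each library was made from 60 discs, dissected 20 at a time. It is not stated whether the pools of a group came from different crosses, so the p-values rest on the variation among pools, which may in part be technical.

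Psi (P-element somatic inhibitor) is a nuclear protein with KH domains, folds that bind single-stranded RNA or DNA. It was first known for keeping an intron of the P-element transposase unspliced in somatic cells, and it is the fly relative of the human FUBP family of proteins, which act at the MYC promoter. In the wing it has been tied to both transcription and splicing. Only gene levels are described here.

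The libraries held 28348413 to 29438682 gene counts in Psi RNAi and 27051832 to 34401160 in control. Levels are given as CPM, the depth-scaled count of a gene with TMM library sizes, and compare libraries for 1 gene, not genes of different lengths. The 32 tested marker genes of the wing disc summed to 6789, 7450 and 7579 CPM in Psi RNAi replicates 1 to 3, against 7881, 7771 and 7941 CPM in control. The list holds Ance, described below, which averaged 676 CPM in Psi RNAi and 1284 CPM in control. That gap is about as large as the one between the mean sums, 7273 and 7864 CPM. Of the 32 genes, 20 had a lower estimate and 12 a higher one, with a median log2 fold change of -0.07. Fat body markers, from tissue that can adhere to dissected discs, summed to 7847, 989 and 483 CPM in Psi RNAi, against 12701, 4317 and 992 CPM in control, so replicate 1 was the richest in each group. The ranges overlapped, although the Psi RNAi sum was the lower at each replicate number. Of these markers 14 of the 16 tested members had a lower estimate, with a median of -0.78, 0 edgeR or DESeq2 calls and 2 at an unadjusted p below 0.05. Since these are bulk samples, fewer cells of a type and less RNA per cell cannot be told apart.

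Psi itself stood at 74.7, 65.7 and 61.7 CPM in Psi RNAi, against 335, 322 and 323 CPM in control. The gene lies on 2R (16861321 to 16867714, Release 6 assembly). Every Psi RNAi library lay far below every control library, and the log2 fold change was -2.28 ± 0.08 (SE, n = 3 per group, edgeR quasi-likelihood test, Benjamini-Hochberg adjusted p = 1.13e-06).

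At an edgeR adjusted p below 0.01, the rule for a called gene wherever DESeq2 is not named, 376 genes differed, 166 of them higher in Psi RNAi and 210 lower. That is 4.07% of the genes tested, 1.8% higher and 2.27% lower. The rises were larger than the falls, with a median log2 fold change of 0.89 among called rises and -0.55 among called falls, and a median of -0.01 over all tested genes. At least 2-fold changes were seen for 74 of the rises and 58 of the falls, while 165 called genes changed by less than 1.5-fold. The levels of the groups did not overlap for 3025 genes (32.8% of those tested), among them all 376 called genes. The set of calls was narrower without single libraries, and 125 genes (57 higher, 68 lower) were called in each of the 6 fits that left out 1 library. The called genes named below are among those 125 unless the loss of the call is stated. Leaving out Psi RNAi 1 and control 1, the replicates with the most fat body transcripts, 82 genes were called, and DESeq2 called 890 (9.71% of those it tested). Of the genes called in all 6 fits and named below, 10 lost their call without that pair of replicates. They were Rac2, Cadps, Nnf1b, Spn27A, CR46123, CR43949, Mp, GstD3, CG17691 and CG10948. Without the pair their adjusted p lay between 0.0102 for Cadps and 0.0315 for CG10948, the highest of each gene's alternatives. The lowest, all with DESeq2, ran from 1.97e-21 to 1.58e-08. An unadjusted p below 0.05 was reached by 2538 of the tested genes (27.5%), against which the list counts at that level are to be read.

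**Figure D1:**
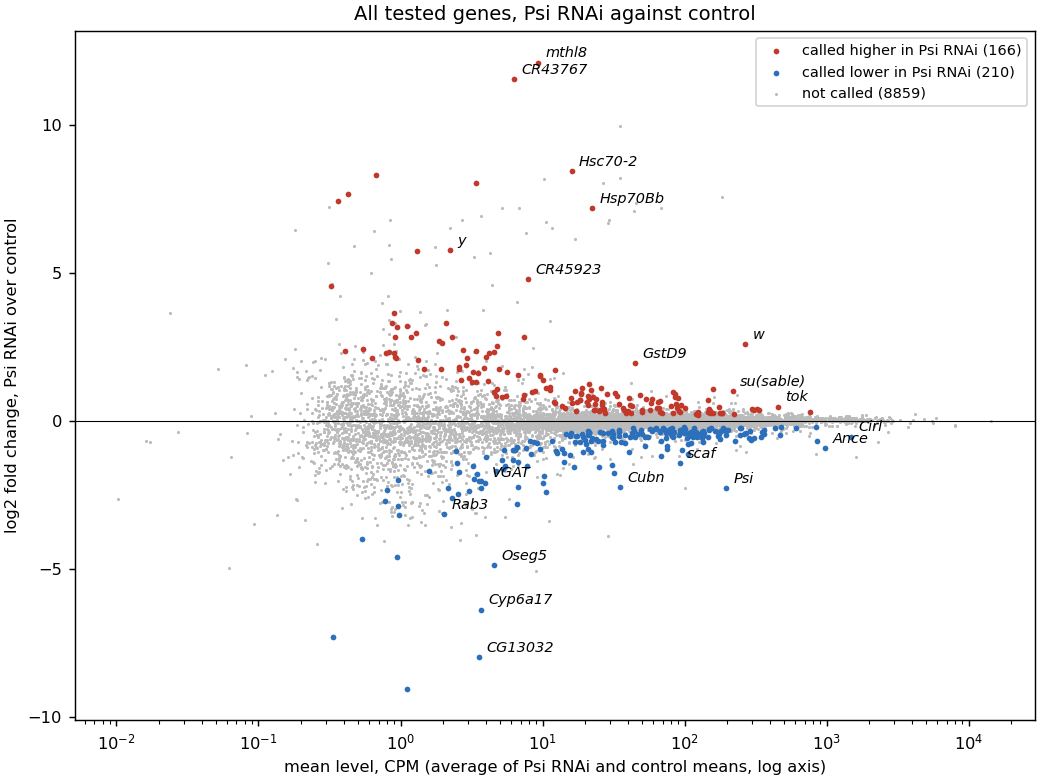
Each point is 1 of the 9235 tested genes, with its mean level in CPM on a log horizontal axis and its log2 fold change, Psi RNAi over control, on the vertical axis. The 166 genes called higher (red) spread to larger changes than the 210 called lower (blue), and most called genes above 100 CPM changed by less than 1 on the log2 scale.

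Several falls of small p were in genes for secreted or cell-surface proteins. The gene scarface (scaf, on 2R at 5676750 to 5691723) encodes a secreted relative of serine proteases that has lost its catalytic residues. It was at 51.7, 51.9 and 46.2 CPM in Psi RNAi, against 130, 135 and 139 CPM in control (log2 fold change -1.43 ± 0.05, edgeR adjusted p = 1.63e-06). Cubn, which encodes a cubilin-like receptor for endocytic uptake, was at 12.3, 10.4 and 14.4 CPM, against 56.7, 59.9 and 57.7 CPM in control (-2.24 ± 0.11, edgeR adjusted p = 6.6e-06). Neither gene came near overlap between the groups. The peptidase gene Ance, the fly relative of angiotensin-converting enzyme, had the largest fall in absolute level of any called gene, at 673, 676 and 678 CPM in Psi RNAi, against 1337, 1202 and 1314 CPM in control (-0.93 ± 0.05, edgeR adjusted p = 6.88e-06). The SD was 2.61 CPM over the Psi RNAi libraries and 72.4 CPM over the control libraries, so the gap was many times either spread. The adhesion gene nrm (neuromusculin), of the immunoglobulin family, averaged 4.39 ± 0.528 CPM in Psi RNAi and 16 ± 0.538 CPM in control (SD, n = 3, -1.87 ± 0.12). The adhesion receptor gene Cirl, the fly latrophilin, was at 1221, 1159 and 1281 CPM, against 1594, 1813 and 1858 CPM in control (-0.52 ± 0.06, edgeR adjusted p = 0.00106). Mp, which encodes a collagen of the type XV and XVIII family, changed by -0.54 ± 0.07 (edgeR adjusted p = 0.00119). Of a list of 27 tested genes for secreted and surface proteins of the disc, 3 were called (scaf, Ance and Cubn), all lower, with a list median of -0.08. That is 11.1% of the list beside 4.07% of all genes, in a list compiled with earlier results of these data known.

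Extracellular proteases and their inhibitors moved both ways. Of 43 tested serine protease and serpin genes, 2 were called higher and 3 lower (11.6% beside 4.07% of all genes), with a median of 0.11. The serpin gene Spn28Dc was at 65.8, 69.1 and 66.2 CPM in Psi RNAi, against 40.2, 41.4 and 39.6 CPM in control (0.73 ± 0.04, edgeR adjusted p = 2.2e-05). Spn27A, a serpin that restrains the Toll-activating protease cascade, moved the other way, at 234, 238 and 226 CPM, against 302, 304 and 308 CPM in control (-0.39 ± 0.05, edgeR adjusted p = 0.00102). Both separations were wide beside the spread of a few CPM within groups. The gene tolkin (tok), which encodes a metalloprotease of the BMP-1 family that acts on BMP pathway proteins, was at 498, 547 and 536 CPM in Psi RNAi, against 385, 361 and 384 CPM in control (0.48 ± 0.05, edgeR adjusted p = 0.000389). It was the only one of 27 tested Dpp pathway genes that edgeR called (3.70% beside 4.07% of all genes). DESeq2 called 8 of the 27, a larger share than the 9.71% of all genes it tested. An unadjusted p below 0.05 was reached by 12, a larger share than the 27.5% of all genes. The ligand gene dpp averaged 99.5 ± 4.52 CPM in Psi RNAi and 94.8 ± 5.11 CPM in control (SD, n = 3).

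Among transcription factors, tiptop (tio), of the teashirt zinc-finger family, and erect wing (ewg), the fly relative of NRF-1, had the smallest p. ewg (X, 268509 to 279718) was at 60.4, 64.1 and 74.3 CPM in Psi RNAi, against 148, 142 and 143 CPM in control (-1.12 ± 0.08, edgeR adjusted p = 3.94e-05). tio (2L, 22019208 to 22025734) was at 39.0, 42.2 and 42.4 CPM, against 98.3, 91.6 and 93.0 CPM in control (-1.20 ± 0.05, edgeR adjusted p = 5.1e-06), and a non-coding gene model lies on its strand. Like every called gene, neither of them overlapped between the groups. The grainyhead-family gene gem, chosen after its values were seen, was at 159, 173 and 192 CPM, against 277, 281 and 274 CPM in control (-0.67 ± 0.07, edgeR adjusted p = 0.000705). Part of it shares a strand with an overlapping gene model, CG46319. In the other direction, Ada2a, a subunit of a histone acetyltransferase complex, was at 42.0, 40.7 and 46.2 CPM, against 24.1, 25.4 and 23 CPM in control (0.83 ± 0.07, edgeR adjusted p = 0.000113). It overlaps Polr2D on its strand, so reads of the pair may be split. Of 44 tested wing patterning transcription factors, 0 were called higher and 2 lower (tio and nab) with edgeR, 4.55% beside 4.07% of all genes. Of the 44, 14 had an unadjusted p below 0.05 (beside 27.5% of all genes), and DESeq2 called 4. The wing selector gene vg averaged 192 ± 17.8 CPM in Psi RNAi and 188 ± 2.73 CPM in control, and nub, which marks the wing pouch, 301 ± 16.4 CPM in Psi RNAi and 305 ± 8.62 CPM in control (SD, n = 3).

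**Figure D2:**
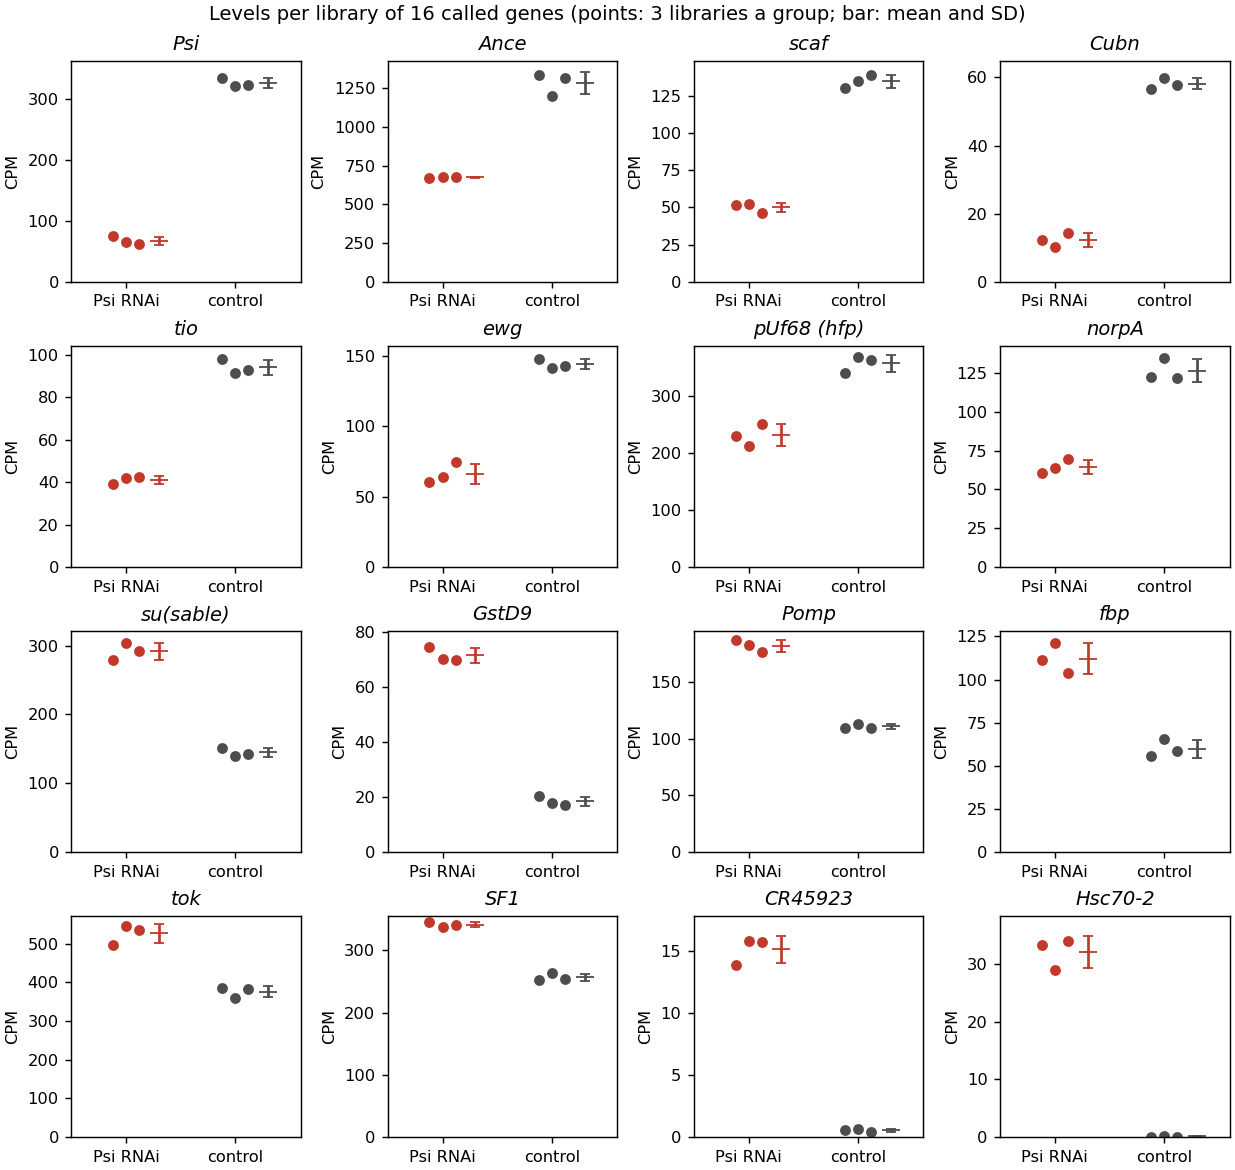
Levels in CPM (vertical axis, from 0) of 16 called genes in each Psi RNAi and control library, with the mean and SD of each group beside the points. Ance lay at 673 to 678 CPM in Psi RNAi and 1202 to 1337 CPM in control, and su(sable) at 280 to 305 CPM in Psi RNAi and 140 to 151 CPM in control.

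RNA-binding and RNA-processing genes changed in both directions. The rise of smallest p was that of su(sable) (X, 635890 to 643760), which encodes a nuclear RNA-binding protein that lowers aberrant transcripts, at 280, 305 and 292 CPM in Psi RNAi, against 151, 140 and 143 CPM in control (1.01 ± 0.05, edgeR adjusted p = 5.22e-06). In Myc RNAi it was at 144, 142 and 147 CPM, and the difference of Psi RNAi from Myc RNAi was 1.02 ± 0.05. SF1, which encodes the protein that recognises the branch point of introns, was at 346, 338 and 340 CPM in Psi RNAi, against 253, 264 and 254 CPM in control (0.41 ± 0.04, edgeR adjusted p = 0.000318). Lower in Psi RNAi was pUf68, also called hfp, a poly(U)-binding splicing factor, at 228, 212 and 250 CPM, against 340, 367 and 362 CPM in control (-0.63 ± 0.07, edgeR adjusted p = 0.000654). Caper, which encodes an RBM39-like splicing coactivator and was chosen after its values were seen, was at 209, 198 and 207 CPM in Psi RNAi, against 278, 295 and 290 CPM in control (-0.49 ± 0.06, edgeR adjusted p = 0.000833), and it overlaps milt on its strand. The DEAD-box helicase gene Dbp80 averaged 82.9 ± 5.22 CPM in Psi RNAi and 138 ± 3.94 CPM in control (-0.74 ± 0.07, edgeR adjusted p = 0.000394). Of 58 tested splicing factor genes, 1 rose (SF1) and 6 fell, 12.1% of the list beside 4.07% of all genes, with a list median of -0.03. The list was compiled with earlier results of these data known, so the choice of members may have raised that share. The 6 were pUf68, B52, su(w[a]), CG13900 (Sf3b3), rump and CG10948, the last of which entered the list without a known splicing role. The calls of B52, su(w[a]), CG13900 and rump depended on single libraries: B52 was lost whichever of the 6 was left out (adjusted p from 3.23e-09 with DESeq2 to 0.0431 over its alternatives), and the other 3 without any one but Psi RNAi replicate 3, with highest adjusted p over their alternatives of 0.0654, 0.0515 and 0.064.

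Calcium-linked and phospholipid signalling genes were found among the falls after their values were seen, so they are listed as a description. norpA, which encodes the phospholipase C of phototransduction, was at 60.7, 63.6 and 69.4 CPM in Psi RNAi, against 122, 135 and 122 CPM in control (-0.97 ± 0.08, edgeR adjusted p = 0.000203). The annexin gene AnxB9, whose product binds membranes in the presence of calcium, was at 319, 305 and 299 CPM, against 424, 417 and 414 CPM in control (-0.44 ± 0.04, edgeR adjusted p = 0.000318). Nca, for the calcium sensor neurocalcin, was at 27.7, 26.8 and 26.3 CPM, against 44.5, 46.5 and 42.4 CPM in control (-0.72 ± 0.05), but it shares its strand with the overlapping gene CG7646, which was at 24.6, 25.1 and 28.7 CPM in Psi RNAi, against 11.3, 13.3 and 11.4 CPM in control (1.12 ± 0.09). How reads are divided between this pair is uncertain.

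A pair of neurotransmission genes with few reads in these discs fell. VGAT, which loads the transmitter GABA into vesicles, was at 1.51, 1.59 and 1.38 CPM in Psi RNAi, against 5.05, 8.25 and 5.76 CPM in control (-2.09 ± 0.21, edgeR adjusted p = 0.00048). Cadps, which primes dense-core vesicles for release, was at 3.17, 2.89 and 4.04 CPM, against 22.3, 17.9 and 12.6 CPM in control (-2.39 ± 0.24, edgeR adjusted p = 0.000774). A list of neuronal and glial markers summed to 219, 112 and 131 CPM in Psi RNAi, against 158, 250 and 133 CPM in control, so the sums overlapped. Of its 14 tested members, 12 had a lower estimate and 2 a higher one, with a median of -1.13, and 0 were called by edgeR, 5 at an unadjusted p below 0.05 and 1 by DESeq2. The active-zone gene brp, for example, was at 1.01, 0.775 and 0.364 CPM in Psi RNAi, against 4.69, 9.64 and 0.496 CPM in control (-2.78 ± 0.98, edgeR adjusted p = 0.116), with control replicate 3 inside the Psi RNAi range. The part of nerve tissue in the levels of VGAT and Cadps was not tested.

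In metabolism and detoxification, the glutathione S-transferase gene GstD9 gave the clearest rise, at 74.7, 70.4 and 69.9 CPM in Psi RNAi, against 20.3, 17.9 and 17.2 CPM in control (1.95 ± 0.09, edgeR adjusted p = 6.55e-06). Its neighbour in the same gene cluster, GstD3, was lower, at 20.4, 22.1 and 18.8 CPM, against 35.9, 29.9 and 31.8 CPM in control (-0.67 ± 0.08, edgeR adjusted p = 0.00119). The family thus split, and of 28 tested glutathione transferase genes 3 were called higher and 1 lower (14.3% beside 4.07% of all genes), with a median of -0.09. The other 2 rises, GstE12 (0.31 ± 0.05) and Mgstl (0.23 ± 0.04), were each lost without any one library but Psi RNAi replicate 3 (highest adjusted p = 0.064 and 0.0672). For GstE12 the range over its alternatives began at 1.55e-06 and for Mgstl at 4.67e-07, both with DESeq2. Of 43 tested cytochrome P450 genes, Cyp9c1 was the 1 called higher, at 50.4, 50.6 and 51.4 CPM in Psi RNAi, against 32.0, 28.9 and 28.3 CPM in control (0.77 ± 0.08, edgeR adjusted p = 0.000509), and 3 were lower, with a list median of -0.27. Called genes were 9.30% of that list, beside 4.07% of all genes.

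The gluconeogenic enzyme gene fbp, for fructose-1,6-bisphosphatase, was at 111, 121 and 104 CPM in Psi RNAi, against 55.4, 65.4 and 58.4 CPM in control (0.91 ± 0.09, edgeR adjusted p = 0.000352). It was the only edgeR call among 17 tested genes of glycolysis and gluconeogenesis, of which DESeq2 called 4 and 6 had an unadjusted p below 0.05. Ald (0.23 ± 0.05, edgeR adjusted p = 0.0248, DESeq2 adjusted p = 0.000147) and Pgk (0.21 ± 0.05, edgeR adjusted p = 0.0322, DESeq2 adjusted p = 0.00124) were called by DESeq2 and not by edgeR. Their groups did not overlap, as was so for 32.8% of all tested genes. Ady43A, which encodes an adenosine kinase, was at 16.5, 15.7 and 15.8 CPM in Psi RNAi, against 47.7, 41.8 and 46.2 CPM in control (-1.50 ± 0.08, edgeR adjusted p = 6.6e-06). CG1139, for a proton-coupled amino-acid transporter, averaged 12.6 ± 0.674 CPM in Psi RNAi and 37.1 ± 4.69 CPM in control (-1.56 ± 0.10, edgeR adjusted p = 2.2e-05). The DNA photolyase gene phr, whose product repairs ultraviolet damage with light, was at 42.7, 42.9 and 40.9 CPM in Psi RNAi, at 59.3, 54.7 and 61.5 CPM in Myc RNAi, and 21.6, 21.1 and 23.7 CPM in control (0.93 ± 0.06 for Psi RNAi against control, edgeR adjusted p = 3.33e-05).

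Of the protein quality control genes, Pomp, which encodes the factor that assembles the proteasome core, was at 187, 183 and 177 CPM in Psi RNAi, against 110, 114 and 110 CPM in control (0.71 ± 0.04, edgeR adjusted p = 2.2e-05). It was the only gene that edgeR or DESeq2 called among 34 of the proteasome, 32 of which had an estimate above 0 and 2 below, with a median of 0.10. Of the 34, 7 had an unadjusted p below 0.05, a smaller share than the 27.5% of all genes. The catalytic subunit gene Prosbeta5 averaged 265 ± 15.4 CPM in Psi RNAi and 243 ± 8.39 CPM in control (SD, n = 3, 0.13 ± 0.06, edgeR adjusted p = 0.193). Of 24 chaperone genes, Hsc70-2 and Hsp70Bb were called higher (8.33% beside 4.07% of all genes). Hsp70Bb was at 44, 19.3 and 69.5 CPM in Psi RNAi, against 0.272, 0.316 and 0.305 CPM in control (7.20 ± 0.73, edgeR adjusted p = 0.00211). Near-identical Hsp70 copies make its reads uncertain, and its call was lost without any control replicate or Psi RNAi replicate 1 (6.24e-36 with DESeq2 to 0.0672 over its alternatives). The abundant Hsp83 was at 1382, 1479 and 2412 CPM in Psi RNAi, against 2683, 3244 and 2618 CPM in control (-0.70 ± 0.24, edgeR adjusted p = 0.117). Pih1D1, a component of a chaperone complex that assembles ribonucleoproteins, fell by 0.57 on the log2 scale, at 106 ± 3.7 CPM in Psi RNAi and 158 ± 6.21 CPM in control (edgeR adjusted p = 0.000203).

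Few growth and cell-cycle genes were called by edgeR. Myc, the growth-promoting transcription factor, was at 107, 118 and 108 CPM in Psi RNAi, against 150, 147 and 139 CPM in control (-0.39 ± 0.09, edgeR adjusted p = 0.0214, DESeq2 adjusted p = 0.000873). The gene stg, for the Cdc25 phosphatase that triggers mitosis, was at 119, 133 and 158 CPM, against 248, 184 and 208 CPM in control (-0.64 ± 0.14, edgeR adjusted p = 0.0262, DESeq2 adjusted p = 4.03e-05). Both passed the threshold with DESeq2 and not with edgeR. Neither overlapped between the groups, as was so for 32.8% of all tested genes. Of 46 tested genes of G1-S and DNA replication, 0 were called by edgeR, 11 had an unadjusted p below 0.05 (a smaller share than the 27.5% of all genes) and 2 were called by DESeq2. In this list 41 had a lower estimate and 5 a higher one, with a median of -0.10. One of them, CycE, which drives entry into S phase, was at 74, 79.5 and 81.3 CPM in Psi RNAi, against 96.2, 89.1 and 91.4 CPM in control (-0.24 ± 0.06, edgeR adjusted p = 0.0369, DESeq2 adjusted p = 0.00945). Of 53 mitotic genes, edgeR called 1 and DESeq2 3. The edgeR call was the kinetochore gene Nnf1b, at 1.62, 1.44 and 1.17 CPM in Psi RNAi, against 5.93, 5.72 and 5.57 CPM in control (-2.02 ± 0.24, edgeR adjusted p = 0.001). Of the 53, 39 had a lower estimate. Spindly, which recruits dynein to kinetochores but was not on that list, was called higher, at 107, 118 and 110 CPM, against 74.8, 74.4 and 78.5 CPM in control (0.55 ± 0.04, edgeR adjusted p = 0.000113). Among 84 cytosolic ribosomal protein genes, 0 were called by edgeR and DESeq2 called 8, beside 9.71% of all genes it tested. Of the 84, 14 had an unadjusted p below 0.05, a smaller share than the 27.5% of all genes. Estimates were above 0 for 69 and below 0 for 15, with a median of 0.04. Among 37 of ribosome biogenesis, 0 were called by edgeR or DESeq2 and 1 had an unadjusted p below 0.05.

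In the signalling lists edgeR called at most 1 gene in each direction. For cell death and JNK signalling, where DESeq2 called 4 of 26, these were hep, the JNK kinase gene, at 158, 164 and 186 CPM in Psi RNAi, against 126, 128 and 132 CPM in control (0.40 ± 0.06, edgeR adjusted p = 0.00308), and the pro-apoptotic gene hid, at 113, 106 and 134 CPM, against 174, 183 and 160 CPM in control (-0.55 ± 0.09, edgeR adjusted p = 0.00644). The call of hep was lost without any control replicate or Psi RNAi replicate 2 (1.6e-08 with DESeq2 to 0.0179 over its alternatives). That of hid was lost without any one library but Psi RNAi replicate 3 (4.58e-07 with DESeq2 to 0.083). The Wingless list (32 tested) held 6 DESeq2 calls, 12 genes at an unadjusted p below 0.05 and 1 edgeR call, nab, for a transcriptional cofactor of wing growth, at 49.1, 51.3 and 56.4 CPM in Psi RNAi, against 90.7, 79.2 and 83 CPM in control (-0.69 ± 0.10), lost without either of Psi RNAi replicates 1 and 2 or of control replicates 1 and 3 (7.7e-09 with DESeq2 to 0.0402). The EGF receptor list (25 tested) held 1 call with either tool, 3 genes at an unadjusted p below 0.05, and as its edgeR call the ligand gene Krn, at 26.6, 25.1 and 27.7 CPM, against 20.4, 20.2 and 20.8 CPM in control (0.37 ± 0.06), lost without any control replicate or Psi RNAi replicate 1 (2.87e-05 with DESeq2 to 0.0539). In the Hippo list (29 tested) the only edgeR call was ewg, with 2 DESeq2 calls and 7 genes at an unadjusted p below 0.05. In the lists of JAK-STAT (14 tested), Hedgehog (21), Notch (34), insulin and TOR (26) and ecdysone (30) edgeR called 0 genes. In that order, 6, 3, 5, 4 and 6 genes had an unadjusted p below 0.05, and DESeq2 called 1, 2, 1, 0 and 1. Oxidative phosphorylation (51 tested), chromatin (35), septate junctions (29) and the V-ATPase with autophagy (36) also gave 0 edgeR calls, with 3, 6, 9 and 5 genes at an unadjusted p below 0.05 and 0, 2, 2 and 1 DESeq2 calls in that order. Over all genes the shares were 4.07% with edgeR, 9.71% with DESeq2 and 27.5% at an unadjusted p below 0.05. The cell death list exceeded them with edgeR (7.69%) and DESeq2, and the Wingless list with DESeq2 and at that unadjusted p. The JAK-STAT and septate junction lists exceeded the share at that unadjusted p. All other shares in this paragraph were below those of all genes.

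Genes of mitochondria, membranes and the cytoskeleton gave further changes of small error. mRpL37, for a protein of the mitochondrial ribosome, was at 70.8, 71.3 and 69.8 CPM in Psi RNAi, against 46.2, 45.3 and 46.8 CPM in control (0.62 ± 0.05, edgeR adjusted p = 0.000104). CG17691, for a subunit of the mitochondrial complex that breaks down branched-chain keto acids, was at 118, 123 and 114 CPM, against 156, 152 and 160 CPM in control (-0.39 ± 0.05, edgeR adjusted p = 0.00122). Rac2, for a small GTPase that organises actin, was at 98.3, 94 and 98.7 CPM, against 129, 129 and 121 CPM in control (-0.38 ± 0.04, edgeR adjusted p = 0.000612). In each of these 3 genes the gap exceeded the range within either group. GNBP2, of the family that recognises microbial cell walls, was at 19.5, 21.1 and 15.8 CPM in Psi RNAi, against 5.59, 6.07 and 5.34 CPM in control (1.73 ± 0.13, edgeR adjusted p = 8.59e-05), while of 27 tested immune genes of a list 0 were called higher and 1 lower. CG3678 (EMC2B), for a subunit of the complex that inserts membrane proteins, was at 35.5, 35 and 34.4 CPM in Psi RNAi, against 47, 51.8 and 50 CPM in control (-0.50 ± 0.06, edgeR adjusted p = 0.000888). Its neighbouring copy CG17556 (EMC2A) was higher, at 14.8, 14.1 and 15.3 CPM, against 9.34, 9.42 and 9.57 CPM in control (0.64 ± 0.09), a call lost without any one library but Psi RNAi replicate 3 (1.82e-06 with DESeq2 to 0.0386), and reads of such related copies may be exchanged.

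In the lists of the cuticle and of small RNAs, no call held in all 6 fits with 1 library left out. Of 57 tested cuticle and chitin genes, 1 was called higher and 3 lower (7.02% beside 4.07% of all genes), with a median of -0.09. The rise was obst-B, for a chitin-binding protein, at 114, 130 and 96.9 CPM in Psi RNAi, against 66.2, 67.1 and 64.4 CPM in control (0.78 ± 0.11), lost without any control replicate or Psi RNAi replicate 1 (2.68e-10 with DESeq2 to 0.0444). Cpr51A, for a cuticle protein, was at 1.76, 2.89 and 2.4 CPM, against 13.3, 9.32 and 10.4 CPM in control (-2.22 ± 0.29), lost without Psi RNAi replicate 1 or 3 (9.4e-11 with DESeq2 to 0.028). The groups were apart for both genes, as for every called gene. Of 23 tested small-RNA pathway genes, 1 was called higher and 2 lower (13.0% beside 4.07% of all genes). These were the piRNA helicase gene spn-E, at 18.7, 19 and 20.1 CPM in Psi RNAi, against 13.9, 11.7 and 12.6 CPM in control (0.60 ± 0.11), and, lower, armi (-0.35 ± 0.06) and mael (-0.98 ± 0.16), both of the same pathway. The call of spn-E was lost whichever library was left out, while armi kept its call without Psi RNAi replicate 3 alone and mael without control replicate 2 alone (highest adjusted p over their alternatives 0.0381, 0.0394 and 0.0657, lowest 0.000112, 1.18e-06 and 8.97e-06 with DESeq2).

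**Figure D3:**
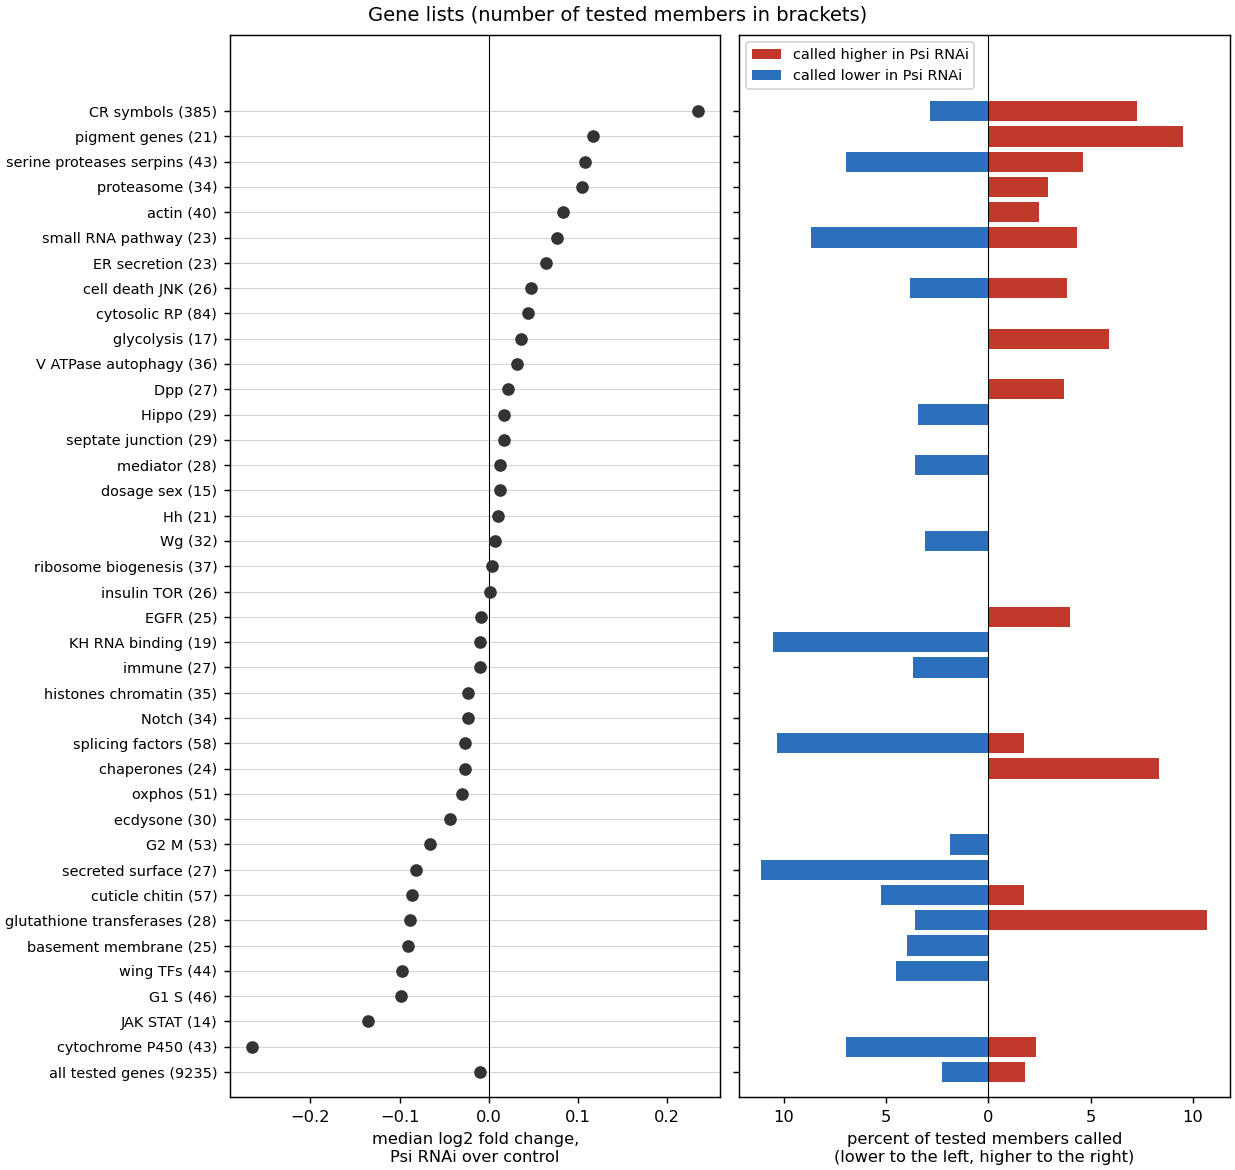
Left, the median log2 fold change (Psi RNAi over control) of the tested members of gene lists other than tissue markers, and right, the percent of them that edgeR called lower or higher. The CR list (median 0.23) and the cytochrome P450 list (-0.27) lie farthest out of the lists drawn, with all tested genes (median -0.01) in the bottom row.

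Gene by gene, the estimates of non-coding genes leaned to the higher side, while their summed level did not. Of 385 tested genes with a CR symbol, which marks non-coding genes and pseudogenes, 28 were called higher and 11 lower, 10.1% beside 4.07% of all tested genes, with a median of 0.23. Estimates were above 0 for 249 of them and below 0 for 136. Their sums overlapped between the groups, at 5690, 5278 and 6558 CPM in Psi RNAi, against 6138, 6054 and 6230 CPM in control. CR45923 (2R, 4621118 to 4622481) was at 13.9, 15.9 and 15.7 CPM in Psi RNAi, at 1.27, 1.10 and 0.814 CPM in Myc RNAi, and 0.574, 0.632 and 0.42 CPM in control (4.79 ± 0.23 for Psi RNAi against control, edgeR adjusted p = 6.25e-06). The protein-coding gene next to it, CG17486, was higher too, at 102, 106 and 107 CPM in Psi RNAi, against 71.7, 71.0 and 68.4 CPM in control (0.57 ± 0.04). CR44807 was at 14.8, 14.7 and 14.2 CPM, against 5.44, 5.69 and 5.61 CPM in control (1.38 ± 0.12), and pncr002:3R, with a short open reading frame of unproven coding use, averaged 73.5 ± 5.64 CPM in Psi RNAi and 44.1 ± 4.55 CPM in control (0.74 ± 0.08). CR46123 was among the falls, at 3.92, 2.54 and 4.95 CPM in Psi RNAi, at 1.97, 1.20 and 1.45 CPM in Myc RNAi, and 16.4, 15.4 and 17.3 CPM in control (-2.10 ± 0.25, edgeR adjusted p = 0.0011). CR45923, CR44807, pncr002:3R and CR46123 each kept the groups apart, as every called gene did.

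The largest fold changes belonged to genes nearly silent in a group, and the Myc RNAi libraries placed them in 2 patterns. In the first, Psi RNAi stood apart from both other groups. Hsc70-2, a gene of the Hsp70 chaperone family, was at 33.3, 28.9 and 33.9 CPM in Psi RNAi, at 0.0282, 0.0666 and 0 CPM in Myc RNAi, and 0.0302, 0.158 and 0.0763 CPM in control (8.44 ± 0.41 against control, edgeR adjusted p = 1.3e-05, and 9.79 ± 0.46 against Myc RNAi). The pigmentation gene yellow (y) was at 4.53, 4.76 and 3.97 CPM in Psi RNAi, at 0.225, 0.167 and 0.283 CPM in Myc RNAi, and 0.121, 0.0316 and 0.0763 CPM in control (5.77 ± 0.44, edgeR adjusted p = 8.59e-05). It is also used as a marker gene in fly transgenes, and reads from a transgene could not be told from those of its own locus. CG31798 had 567 counts over the Psi RNAi libraries and 2 over the control libraries, a ratio with a 95% counting interval of 84.9 to 2552, and none in Myc RNAi. Such intervals and bounds cover counting error only.

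In the second pattern both knockdown groups stood apart from control. mthl8, which encodes a receptor of the Methuselah family, was at 14.0, 22.9 and 18.9 CPM in Psi RNAi, at 39.5, 33.7 and 36.0 CPM in Myc RNAi, and without a count in control, so it was at least 565-fold higher in Psi RNAi, taking 3 counts over the control group as the floor. CG30054 was at 3.99, 3.73 and 4.33 CPM in Psi RNAi, at 4.51, 4.20 and 4.00 CPM in Myc RNAi, and 0.423, 0.6 and 0.649 CPM in control (2.85 ± 0.23, edgeR adjusted p = 0.00011), and it was chosen after its values were seen. Among the falls, the cytochrome P450 gene Cyp6a17, linked to temperature preference, was at 0.216, 0.0352 and 0 CPM in Psi RNAi, at 0.0564, 0.0333 and 0.0707 CPM in Myc RNAi, and 6.77, 7.81 and 7.29 CPM in control (-6.37 ± 0.74, edgeR adjusted p = 0.00112). Oseg5, for a component of intraflagellar transport, averaged 0.3 ± 0.0781 CPM in Psi RNAi, 0.285 ± 0.146 CPM in Myc RNAi and 8.87 ± 1.5 CPM in control (-4.87 ± 0.39). Nnf1b was also low in both knockdown groups, at 1.41 ± 0.229 CPM in Psi RNAi, 1.76 ± 0.414 CPM in Myc RNAi and 5.74 ± 0.179 CPM in control. The differences of Psi RNAi from Myc RNAi were 0.61 ± 0.89 for Cyp6a17, 0.06 ± 0.39 for Oseg5 and -0.32 ± 0.23 for Nnf1b (edgeR adjusted p = 0.65, 0.937 and 0.325, where 22.3% of genes were called in that contrast). Since the control line came from another stock than either hairpin, stock background and knockdown cannot be told apart for these genes. That limit also covers falls at higher levels. Of the 376 called genes, 252 were also called against Myc RNAi, 233 of them in the same direction, beside 22.3% of all genes. Ance, nrm, CG1139 and ewg averaged 823, 7.79, 20.1 and 107 CPM in Myc RNAi, between Psi RNAi and control. In contrast, scaf and Cubn averaged 165 and 66.1 CPM in Myc RNAi, above control.

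**Figure D4:**
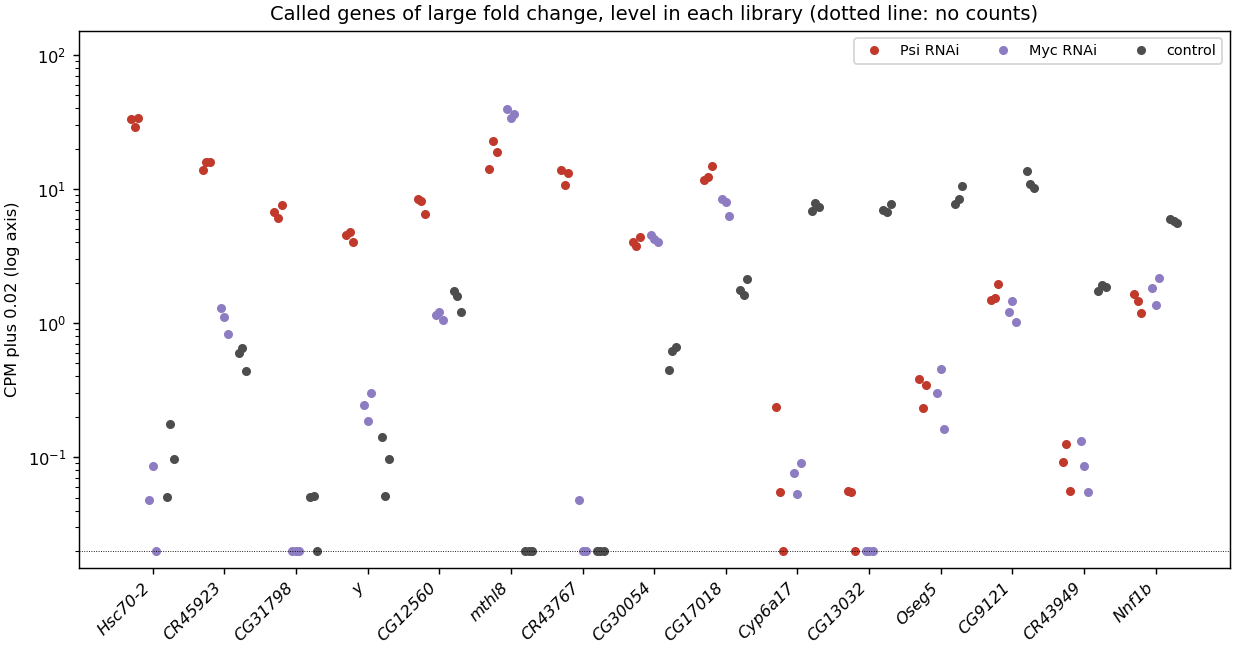
Levels (CPM with a small constant added, log axis) of 15 called genes of large fold change in each Psi RNAi (red), Myc RNAi (purple) and control (grey) library, the dotted line marking no counts. Hsc70-2, CR45923, CG31798, y and CG12560 are high in Psi RNAi alone, CR43767 is also at or near 0 in both other groups, and Cyp6a17, CG13032, Oseg5, CG9121, CR43949 and Nnf1b are low in both knockdown groups.

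The eye-pigment transporter gene white (w), which is also the marker gene carried by most fly transgenes, was at 488, 251 and 633 CPM in Psi RNAi, at 187, 178 and 163 CPM in Myc RNAi, and 73.5, 79.7 and 74.8 CPM in control (2.59 ± 0.31, edgeR adjusted p = 0.0034). Reads from a transgene and from the gene at its own locus cannot be told apart here. It had the largest rise in absolute level of any called gene, and its call was lost without any control replicate or Psi RNAi replicate 1 (5.31e-17 with DESeq2 to 0.0753 over its alternatives).

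Called genes were spread over all chromosome arms, from 3.31% of the tested genes on X and 3.34% on 3R to 5.35% on 3L, and 8 of 91 (8.79%) on chromosome 4. Of the called genes, 53 lay next to another called gene among the tested genes of an arm, in 24 runs of at most 3, and 17 of the runs moved one way. Over all tested genes 4.07% were called, and how many runs that share gives by itself was not tested. Some runs hold gene models that overlap on 1 strand, such as Nca with CG7646, where reads may be split. On 3R, Hsc70-2 (13044759 to 13047388) was followed by CG31157, at 2.23, 2.25 and 3.21 CPM in Psi RNAi, against 0, 0.0948 and 0.0381 CPM in control, and by CG7966, at 19.3, 14.2 and 13.4 CPM, against 8.47, 6.79 and 5.91 CPM in control (5.73 ± 0.74 and 1.15 ± 0.20, edgeR adjusted p = 0.00385 and 0.00724). All 3 were higher in Psi RNAi in every library. The call of CG31157 was lost without control replicate 3 or any Psi RNAi replicate, and that of CG7966 whichever library was left out (highest adjusted p over their alternatives 0.0215 and 0.0338, lowest 2.56e-09 and 7.5e-06 with DESeq2).

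On 2L, tio was lower while the 2 tested genes before it were higher. CR44804 was at 0.612, 0.916 and 0.656 CPM in Psi RNAi with no counts in Myc RNAi or control, at least 22.1-fold higher than in control, and CG2528 was at 1.91, 1.76 and 2.59 CPM in Psi RNAi, against 0.302, 0.284 and 0.267 CPM in control (2.85 ± 0.47, edgeR adjusted p = 0.00537). Leaving out any single library ended both calls (highest adjusted p over their alternatives 0.0556 and 0.0542, lowest 0.00028 and 8.27e-07 with DESeq2). Some lines of the hairpin library to which stocks numbered like V105135 belong carry an insertion beside tio, and whether the stock used here does was not tested. Another run on 2L held Wwox (7999670 to 8004286), for an oxidoreductase related to a human tumour suppressor, at 14.0, 14.5 and 14.6 CPM in Psi RNAi, against 29.3, 30.3 and 29.1 CPM in control (-1.04 ± 0.07, edgeR adjusted p = 2.64e-05). The next tested genes, Spn28Dc (0.73 ± 0.04) and CG12560 (2.35 ± 0.22), were higher, so neighbours here moved in opposite directions.

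Haemocyte markers, from blood cells attached to discs, summed to 344, 435 and 383 CPM in Psi RNAi, against 889, 501 and 519 CPM in control. Those sums did not overlap (two-sided exact permutation test, p = 0.1, the least that groups of 3 can give), and 15 of 18 tested members had a lower estimate, with a median of -0.79 and 0 edgeR or DESeq2 calls and 5 at an unadjusted p below 0.05. Salivary gland and gut markers summed to 2121, 29.2 and 32.5 CPM in Psi RNAi, against 32.9, 20.6 and 56.6 CPM in control, the first being a single library with 1093 CPM of the digestive protease gene Jon65Aiv. Muscle progenitor markers (1215, 1093 and 1250 CPM in Psi RNAi, against 1186, 1130 and 1139 CPM in control) and tracheal markers (3011, 2962 and 2945 CPM in Psi RNAi, against 2907, 3039 and 2991 CPM in control) overlapped. The part of these tissues in the calls was not tested, and the 82 genes called after leaving out both first replicates were all among the 376.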

How the data were processed

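Gene counts were deposited by the authors as whole read pairs per gene, 1 library per file, made from stranded poly(A) libraries by alignment with TopHat2 2.1.1 to a FlyBase genome release and counting with HTSeq 0.6.1, after FastQC 0.11.6 quality control. The last 5 summary lines of each file were dropped. The authors' deposited tables of fold changes and p-values (DESeq2 1.12.0) and their splicing tables were used for gene names only or not at all, and 48 columns of values per library in them were not used. Of 17471 genes, 13372 were named by the authors' table, 4057 by reference annotation and 42 by neither. Positions are those of a Release 6 annotation, found for 9098 tested genes.

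Counts were fitted with edgeR 4.0.16 in R 4.3.3: TMM scaling, filterByExpr by group, and robust quasi-likelihood dispersions estimated from all 9 libraries, without covariates. Contrasts were Psi RNAi against control and Psi RNAi against Myc RNAi, with Benjamini-Hochberg adjustment over all 9235 genes and a threshold of 0.01. The biological coefficient of variation was 23%. Errors of log2 fold changes, given as SE, are the absolute log2 fold change divided by the square root of the quasi-likelihood F statistic. They are approximate, above all where a group held few counts. Where a group held no counts, the fold was bounded with 3 counts over that group. The script was tested on simulated data. Within Psi RNAi and within control, no 2 libraries agreed within counting noise, and other pairs were not checked. Reads of overlapping genes on 1 strand may be divided between them, which touches 66 called genes.

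Alternatives were DESeq2 1.42.0, RLE scaling, no count filter, the 2 groups alone, the replicate number as a block, and leaving out each library in turn or the fat-body-rich pair. Genes named were drawn from Psi and those of the study's text, and from the 15 largest folds and 20 smallest p each way. Further sources were the 12 of largest CPM difference each way, up to 4 per list and called neighbours. The last were CR genes of at least 10 CPM and the 6 that differ most from Myc RNAi each way. These rules picked 287 genes, and not all are printed. Of 16 tested genes on the study's list, Psi included, edgeR called 2 higher and 3 lower, and DESeq2 called 15. Several of the study's genes that edgeR did not call are not printed. Members, the 45 lists and these rules were chosen with earlier results of these data known.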

Additional observations from a re-analysis of the deposited data

How the results depend on the processing

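Against 376 genes, 890 were called with DESeq2, 82 after leaving out the pair with most fat body transcripts (Psi RNAi 1 and control 1), and 150 to 305 with 1 library left out. RLE scaling gave 368, no count filter 374 and fitting the 2 groups alone 284. None of the 376 changed sign under an alternative that fitted it, and Psi was called in all of them. Same-numbered Psi RNAi and control libraries correlated at 0.0901 to 0.304 across genes in their deviations (0.117 to 0.264 on another log scale), and every library correlated best with its own number. A limit of 0.1 for all 3 pairs was thus met on one scale and missed on the other, and nothing in the labels ties equal numbers, so the pairing is uncertain and the fit without it was kept. With the number as a block, 421 genes were called, 324 of them among the 376. Of the named calls it ended those of w (adjusted p = 0.0184), hid (0.0209) and CR44804 (0.0253), and it added no call among the 8 named genes that edgeR did not call. Of 81 called genes named in the results besides Psi, 49 were still called without the fat-body-rich pair and 60 to 73 with 1 library left out. Genes under about 1 CPM rest on few reads, and differences there were not detectable unless large.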
